A study of Drosophila melanogaster with 31 samples.

Results

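The genes of the vacuolar ATPase were chosen by name, as every gene whose FlyBase symbol begins with Vha. The BDGP6.54 annotation holds 33 of them, 13 for the V1 sector and 20 for the V0 sector, and 29 were found by gene ID among the 17559 genes of the table, 10 of V1 and 19 of V0. The other 4, Vha44 (subunit C), Vha26 (subunit E), Vha13 (subunit G) and VhaAC39-1 (subunit d), did not match by ID and were not analysed here. After the filter on low counts 22 of the 29 were tested.

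RNA was sequenced from single clones of about 50 cells, cut by laser from Drosophila larval eye imaginal discs in the region anterior to the morphogenetic furrow, where cells still divide. There were 4 clone genotypes: Tsc1 mutant clones with foxo knockdown (Tsc1[Q87X] foxoRi), Tsc1 mutant clones (Tsc1[Q87X]), clones with foxo knockdown alone (foxoRi), and wild-type clones (wt). Each was taken from wandering larvae raised under nutrient restriction (NR, with yeast cut to 10% of the normal amount) or on normal food, which gives 8 groups. All larvae had a heat shock of 11 min at 37°C at 36 h after egg laying to induce clones, and the MARCM system with temperature-sensitive Gal80 confined knockdown to clones, which were recognised by the loss of GFP. Knockdown was switched on by moving larvae to 30°C for the last 12 h, whereas clones without knockdown stayed at 25°C, so that knockdown and temperature cannot be told apart. NR larvae were dissected at a later age than larvae on normal food, and food and age cannot be told apart either. The labels do not tie clones to animals, so p-values measure the spread between libraries.

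Vacuolar ATPase is a rotary proton pump. Its V1 sector sits in the cytosol and hydrolyses ATP, which turns a central stalk, and its V0 sector lies in the membrane, where a ring of proteolipid subunits carries protons into the lysosome and other compartments. The pump acidifies lysosomes, on whose surface it contacts the Ragulator and Rag GTPase complexes that bring TORC1 to the membrane when amino acids are plentiful. Tsc1 is part of the complex that holds TORC1 back by acting on Rheb, and FoxO is a transcription factor of the insulin pathway that is active when nutrients are short.

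Of 31 libraries, 29 were used, 4 in every group except foxoRi NR (2) and wt on normal food (3). The 2 left out had the fewest genes with a count, 4977 in foxoRi NR replicate 3 and 6846 in wt normal food replicate 4, and foxoRi NR replicate 3 stood far from the rest in the Vha genes as well, with Vha36-1 at 0 and Vha68-2 at 0.45 CPM (counts scaled to a common library size). Totals of the 29 ranged from 6877877 to 13316136 counts with 9536 to 15173 genes detected. The level of foxo, the gene targeted by the knockdown, averaged 38.7 CPM in Tsc1 foxoRi and 26.4 in Tsc1 clones under NR and 57.8 in foxoRi against 49.8 in wt clones, and on normal food 29.4 against 34.5 and 37.1 against 45.4 CPM in the same pairs. With a log2 fold change of 0.06 over strata (95% interval -0.24 to 0.37, adjusted p = 1.0, edgeR) foxo RNA was not lower in the libraries labelled foxoRi. Its level does not check their label. The study also saw no drop in foxo transcripts, but judged knockdown adequate from nuclear FoxO staining of Tsc1 mutant cells after the 12 h shift. In a cultured cell line it found a partial loss of foxo transcripts beside a significant loss of protein. It proposed feedback on transcription or an effect on translation. By gene set enrichment it also found known FoxO targets enriched among genes that differed between wild-type and foxo knockdown clones on normal food. The 7 eye progenitor markers, among them toy, eya and dac, summed to between 956 and 2450 CPM in every library. The 9 photoreceptor and neuron markers summed to a median of 88.8 CPM (38.9 to 1233) in the 16 Tsc1 mutant libraries, with and without knockdown, against 346 CPM (54.6 to 2169) in the 13 without the mutation, and 2 libraries had no count on sev. The 5 muscle markers summed to a median of 17.9 CPM (3.81 to 57.9) in Tsc1 mutant libraries against 6.26 CPM (2.58 to 18.7) in the others. The 6 fat body markers were high in some Tsc1 mutant libraries under NR. Their median sum was 26.95 CPM (15.8 to 2830) in Tsc1 foxoRi NR and 205.5 CPM (2.68 to 791) in Tsc1 NR libraries. It was 8.485 CPM (1.374 to 15.6) in foxoRi NR and 17.03 CPM (1.155 to 57.9) in wt NR libraries. The highest sum was 57.9 CPM in libraries without the mutation, and 23.1 CPM in Tsc1 mutant libraries on normal food.

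Each subunit of the pump with several measured genes was expressed in these clones mostly from 1 of them, apart from subunits a and e. Of the 29 genes, 11 had over 3 counts in every library, with a lowest count of 42, and they are called the broadly expressed set here, a choice made after the values were seen. The remaining 18 were lower, with at most 124 counts in any library. The highest of them, VhaM9.7-c, had over 3 counts in 27 libraries and 6.30 CPM per kb. The next, VhaAC45RP, had 1.03, and the lowest of the 11, Vha100-2, had 11.5. Levels are given as CPM per kb of exon, averaged over the 29 libraries.

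In V1, the catalytic subunit A came from Vha68-2 (chromosome 2L, 12974322 to 12978607, plus strand) at 27.5 CPM per kb. Its paralogs Vha68-1 and Vha68-3 had 0.423 and 0.33, so that Vha68-2 made up 97.3% of subunit A. Vha55, the nucleotide-binding subunit B that has no paralog by this naming, had 30.3 CPM per kb. The central stalk subunit D was 98.4% Vha36-1 (chromosome 2R, 15541435 to 15542498, plus strand, a single exon) at 19.7 CPM per kb, and the stalk subunit F was 99.8% Vha14-1 at 32.2. VhaSFD, subunit H, which links V1 to the stator and regulates the pump, had 11.9 CPM per kb. These 5 V1 genes stood between percentiles 83.6 and 95.1 of all protein-coding genes with a count.

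In V0, Vha16-1, the proteolipid c of the rotating ring (chromosome 2R, 6625242 to 6633090, minus strand), was the highest of all Vha genes at 190 CPM per kb, percentile 99.2, and held 99.5% of subunit c among its 5 genes. The second ring proteolipid, VhaPPA1-1, had 29.1 CPM per kb and 99.5% of its subunit. VhaM9.7-b, a small membrane subunit e, had 26.4 CPM per kb or 79.5% of its subunit, and VhaM9.7-c, at 6.30, had 19.0%. The accessory subunit gene VhaAC45, which acts in assembly of V0, had 23.7 CPM per kb, 95.8% of the pair with VhaAC45RP. Subunit a, which forms the proton path beside the ring, was shared between Vha100-1 (12.0 CPM per kb, 49.6% of the subunit) and Vha100-2 (11.5, 47.8%). VhaAC39-2, the only measured gene of subunit d, had 0.187 CPM per kb.

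**Figure D1:**
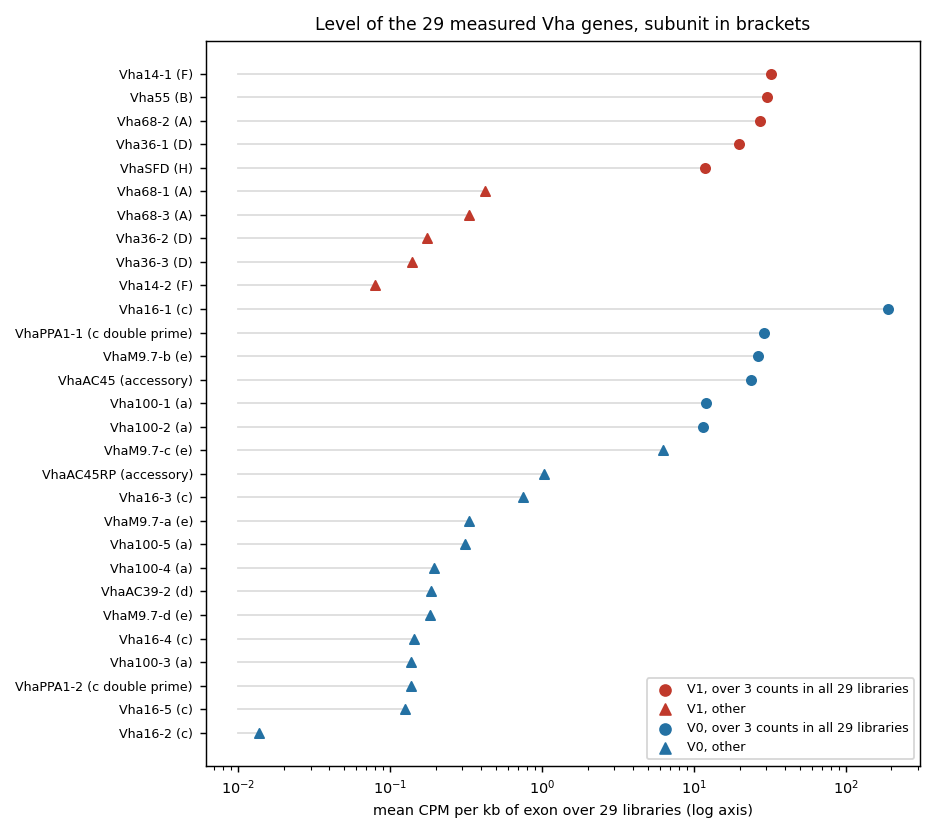
Mean level of the 29 measured Vha genes over 29 libraries in CPM per kb of exon on a log axis, V1 above and V0 below with the subunit in brackets. Circles mark the 11 genes with over 3 counts in every library and triangles the other 18. Vha16-1 stands at 190 and the other 10 circles between 11.5 and 32.2, while triangles reach 6.30 at most.

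Of the 18 low genes, only VhaM9.7-c had a count in every library, and the others give no reliable comparison of conditions. VhaM9.7-c averaged 6.06 ± 2.76 CPM in the 16 Tsc1 mutant libraries and 4.46 ± 2.97 CPM in the 13 others (SD). It averaged 4.03 ± 1.91 CPM in the 14 NR libraries and 6.57 ± 3.22 CPM in the 15 on normal food. In 2 of the 29 libraries Vha16-2 had a single count and in the rest none, and 84.5% of its exon sequence lies under an antisense RNA gene on the opposite strand, as does 18.1% of Vha100-5. The strand setting of the count is not given in the sources used here. The 11 low genes that were tested passed no call in any comparison, with a lowest adjusted p of 0.269 (edgeR quasi-likelihood test). Some reached higher counts in single libraries, such as Vha16-3 with up to 42 counts in 1 library and none in 21, and Vha100-4 with up to 70 and none in 11.

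The first question was whether Tsc1 mutant clones differ in pump transcripts, asked within each of 4 strata (NR or normal food, with or without knockdown) and as the mean of the 4. In the mean over strata, V1 genes stood higher in Tsc1 mutant clones than in clones without the mutation, and V0 genes less so. The study's rule is used for calls, which needs both an adjusted p below 0.2 and a log2 change beyond 0.8 in either direction. By that rule 1 of the 22 tested Vha genes was called higher, Vha36-1, and none lower, against 5.65% of all 13524 tested genes called higher. At an adjusted p under 0.05 at any fold, 4 of the 22 passed, all higher, against 3.65% of all tested genes higher and 2.17% lower: Vha36-1, Vha68-2 and Vha55 of V1 and VhaAC45 of V0. The median log2 fold change of all tested genes in this comparison was 0.15, of the 5 V1 genes 0.63 and of the 6 broadly expressed V0 genes 0.22, and all 5 V1 genes but 4 of 6 V0 genes lay above the median of all. A log2 fold change above 0 was found for 10 of the 11, against 61.4% of all tested genes. By stratum, the V1 and V0 medians were 0.71 and 0.32 in Tsc1 against wt clones under NR and 0.52 and 0.155 on normal food. In Tsc1 foxoRi against foxoRi clones they were 0.80 and 0.25 under NR, but nearly alike on normal food (0.44 and 0.42). The medians of all tested genes were 0.20, -0.09, 0.47 and -0.02 in these 4 strata, in the same order. In Tsc1 foxoRi against foxoRi clones under NR the V0 median thus lay below that of all genes. Only 3 of 5 V1 and 1 of 6 V0 genes lay above it there. In the other strata all 5 V1 genes lay above it, and 4, 4 and 5 of 6 V0 genes did. The difference between the sectors was not tested.

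Vha36-1, subunit D of the central stalk, had the largest log2 fold change of the 11 broadly expressed genes. Under NR it had 25.8, 25.5, 31.1 and 26.2 CPM in Tsc1 foxoRi libraries against 14.6 and 11.8 in foxoRi libraries, and 39.8, 33.7, 28.9 and 27.1 CPM in Tsc1 against 17.1, 24.2, 16.99 and 13.3 in wt libraries. On normal food it had 14.2, 30.8, 15.5 and 23.8 CPM in Tsc1 foxoRi against 5.37, 10.4, 10.9 and 15.8 in foxoRi libraries, and 19.5, 24.4, 38.5 and 28.0 CPM in Tsc1 against 17.7, 6.57 and 11.0 in wt libraries. Groups did not overlap in 3 of the 4 strata, and on normal food with knockdown 2 Tsc1 foxoRi libraries lay below the highest foxoRi library. Over all strata the 16 Tsc1 mutant libraries averaged 27.0 ± 7.07 CPM and the 13 others 13.5 ± 5.02 (SD), and 12 of the 16 lay above every library without the mutation. The log2 fold change over strata was 1.03 (SE 0.18, 95% interval 0.66 to 1.39), a fold of 2.04, with an adjusted p of 0.000605 (edgeR quasi-likelihood test). It was higher in the mean of 4 of 4 strata and passed adjusted p under 0.05 without any 1 of the 29 libraries (0.000407 to 0.0122).

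Vha68-2, the catalytic subunit A, was the next. It had 84.5, 91.9, 90.5 and 91.8 CPM in Tsc1 foxoRi NR libraries against 50.9 and 39.1 in foxoRi NR libraries, and 124, 74.2, 113.8 and 108.7 CPM in Tsc1 NR against 64.8, 43.8, 66.7 and 82.3 in wt NR libraries. On normal food it had 78.5, 97.9, 58.4 and 71.4 CPM in Tsc1 foxoRi against 62.9, 53.4, 46.1 and 63.2 in foxoRi libraries, and 78.1, 104.4, 98.2 and 68.7 CPM in Tsc1 against 64.1, 60.8 and 64.2 in wt libraries. Tsc1 mutant libraries averaged 89.7 ± 17.8 CPM (n = 16) and the others 58.6 ± 11.6 CPM (n = 13, SD), and 10 of the 16 exceeded every library without the mutation. The log2 fold change over strata was 0.65 (SE 0.12, 95% interval 0.42 to 0.89, adjusted p = 0.000687, edgeR), a fold of 1.57 that does not reach the fold size of the call. Leaving out each library gave adjusted p between 0.000454 and 0.0175.

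Vha55, subunit B, which pairs with subunit A in the ATP-hydrolysing head, had 62.2, 116, 69.7 and 97.9 CPM in Tsc1 foxoRi NR against 83.7 and 55.1 in foxoRi NR libraries, which overlap. In Tsc1 NR libraries it had 121, 77.9, 104.4 and 109.8 CPM against 69.8, 59.9, 59.1 and 72.1 in wt NR libraries, with no overlap. On normal food it had 92.7, 95.7, 89.4 and 100.4 CPM in Tsc1 foxoRi against 85.2, 63.5, 76.0 and 78.0 in foxoRi libraries, again apart, and 96.4, 101.3, 103.7 and 96.5 CPM in Tsc1 against 48.2, 96.5 and 63.3 in wt libraries, where 1 wt library reached the Tsc1 values. The log2 fold change over strata was 0.46 (SE 0.12, adjusted p = 0.0182, edgeR), with 95.9 ± 15.5 CPM in the 16 Tsc1 mutant libraries and 70.0 ± 13.6 CPM in the 13 others. Without foxoRi NR replicate 2 the adjusted p was 0.206 and without wt normal food replicate 1 it was 0.0539.

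VhaAC45, an accessory protein needed for V0 assembly, was the single V0 gene at an adjusted p under 0.05. It had 48.9, 40.9, 68.5 and 48.2 CPM in Tsc1 foxoRi NR against 44.5 and 37.8 in foxoRi NR libraries, and 69.7, 52.0, 48.2 and 63.8 CPM in Tsc1 NR against 41.5, 42.1, 28.8 and 42.1 in wt NR libraries. On normal food it had 58.4, 47.9, 54.3 and 54.9 CPM in Tsc1 foxoRi against 27.4, 33.2, 42.7 and 44.7 in foxoRi libraries, and 42.7, 45.2, 59.0 and 59.6 CPM in Tsc1 against 45.2, 44.6 and 44.3 in wt libraries. Only 2 of the 16 Tsc1 mutant libraries lay within the range of the 13 others (53.9 ± 8.71 against 39.9 ± 6.20 CPM). The log2 fold change was 0.42 (SE 0.11, adjusted p = 0.0254, edgeR), and the adjusted p rose above 0.05 without any 1 of 6 libraries, to 0.228 without foxoRi NR replicate 2, 0.119 without foxoRi NR replicate 1, and 0.051 to 0.0702 without Tsc1 NR replicate 2, Tsc1 foxoRi NR replicate 1, wt normal food replicate 1 or foxoRi normal food replicate 1.

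In the mean over strata the other 2 V1 genes lay higher without passing. Vha14-1, subunit F of the stalk, averaged 25.6 ± 9.09 CPM in the 16 Tsc1 mutant libraries and 15.9 ± 5.43 CPM in the 13 others, a log2 fold change of 0.63 (SE 0.21, adjusted p = 0.0727, edgeR). VhaSFD, subunit H, averaged 38.1 ± 9.80 and 28.1 ± 8.34 CPM in the same order, a log2 fold change of 0.49 (SE 0.17, adjusted p = 0.0898, edgeR). Vha14-1 was lower instead in Tsc1 foxoRi against foxoRi clones under NR, with means of 18.3 and 21.2 CPM. It ranged over 7.07 to 40.7 CPM in Tsc1 mutant libraries. Its spread there was the widest of the 5 V1 genes relative to the mean.

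Of the V0 genes, Vha16-1, the ring proteolipid, averaged 630 ± 104 CPM in Tsc1 mutant libraries and 525 ± 74.6 CPM in the others (log2 fold change 0.26, 95% interval 0.06 to 0.46, adjusted p = 0.12, edgeR), and VhaM9.7-b 36.0 ± 10.2 and 27.2 ± 10.9 CPM (0.48, 95% interval 0.11 to 0.84, adjusted p = 0.117). VhaPPA1-1 had a log2 fold change of 0.18 (95% interval -0.05 to 0.41, adjusted p = 0.409), Vha100-2 of 0.12 (-0.18 to 0.42, adjusted p = 0.747) and Vha100-1 of -0.12 (-0.42 to 0.19, adjusted p = 0.772, all edgeR). The intervals of VhaPPA1-1, Vha100-2 and Vha100-1 include 0 and those of Vha16-1 and VhaM9.7-b do not, and all 5 end below the log2 fold change of Vha36-1.

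**Figure D2:**
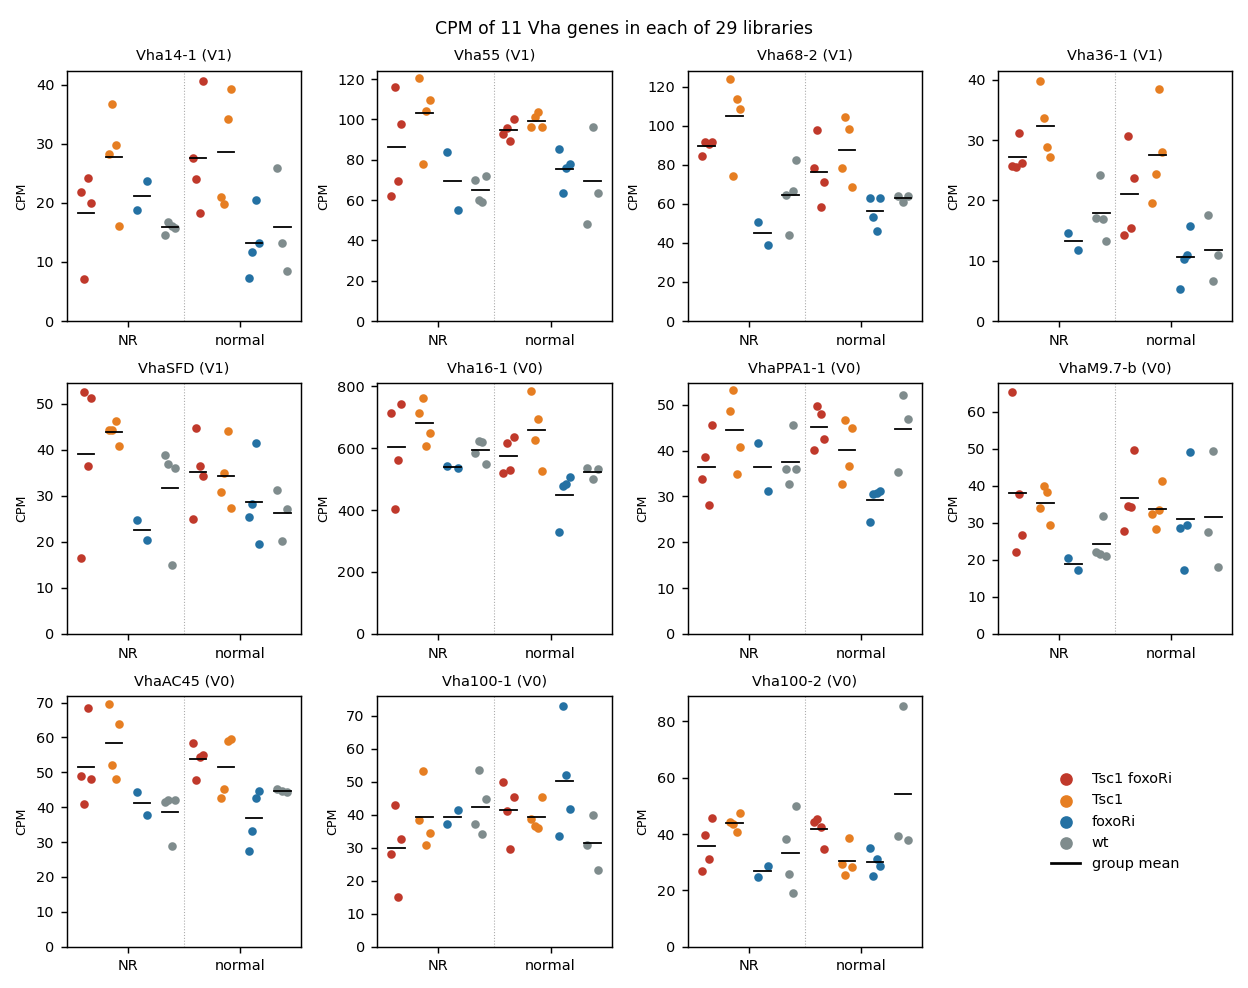
CPM of the 11 broadly expressed Vha genes in each of 29 libraries, NR at left and normal food at right of the dotted line, with Tsc1 foxoRi, Tsc1, foxoRi and wt from left to right and a black bar at each group mean. Each axis starts at 0. In Vha36-1 the 16 Tsc1 mutant libraries average 27.0 CPM and the 13 others 13.5 CPM, while in Vha100-1 both sets overlap throughout.

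In the single strata few Vha genes passed. Vha36-1 was called in Tsc1 against wt clones on normal food (log2 fold change 1.23, SE 0.36, adjusted p = 0.176, edgeR), 1 of 22 tested, against 0.333% of all tested genes called higher. Vha68-2 was called in Tsc1 foxoRi against foxoRi clones under NR (log2 fold change 1.00, SE 0.27, adjusted p = 0.144, edgeR), 1 of 22 against 0.636%. No Vha gene was called in Tsc1 against wt clones under NR (0.473% of all called higher), where 6 of 22 had an unadjusted p under 0.05 against 8.39% of all. None was called in Tsc1 foxoRi against foxoRi clones on normal food either (0.525%), where 6 of 22 also had one against 11.1%. DESeq2's Wald test called 1 Vha gene in each of these 2 comparisons. The call of Vha36-1 was lost without any 1 of 6 of the 7 libraries, all but wt normal food replicate 1, with adjusted p of 0.215 to 0.49. That of Vha68-2 was lost without foxoRi NR replicate 1 or 2 (0.589 and 0.731) and without Tsc1 foxoRi NR replicate 1 or 2 (0.207 and 0.217, all edgeR).

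Of the 11 broadly expressed genes, 4 had groups apart and higher in Tsc1 against wt clones under NR (Vha36-1, Vha55, VhaSFD and VhaAC45, where 4.16% of all tested genes did), and 4 in Tsc1 foxoRi against foxoRi clones on normal food (Vha55, Vha16-1, VhaPPA1-1 and VhaAC45, 3.24%). In Tsc1 against wt clones on normal food 2 were apart (Vha36-1 and Vha68-2, 3.35%), and in Tsc1 foxoRi against foxoRi clones under NR 3 were (Vha36-1, Vha68-2 and VhaM9.7-b), where 10.1% of all tested genes were, with 2 foxoRi libraries. None had groups apart and lower in any of the 4. Here and below, the shares cover all tested genes and are not matched for level, whereas the 11 were chosen for counts in every library.

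Summed over the 5 V1 genes, the level was 276 ± 39.2 CPM in the 16 Tsc1 mutant libraries and 186 ± 17.6 CPM in the 13 others, and by group it ran from 255 CPM in Tsc1 foxoRi clones on normal food to 312 CPM in Tsc1 NR clones among the mutants, and from 171 CPM in foxoRi NR to 195 CPM in wt NR clones among the others. The lowest mutant library had 211 CPM and the highest of the others 220 CPM. Per kb of exon the V1 sum was 145 ± 21.4 CPM in Tsc1 mutant libraries and 93.1 ± 9.84 in the others, and the V0 sum without Vha16-1 was 110.3 ± 11.0 and 93.1 ± 16.1. The ratio of V1 to V0 was 1.32 ± 0.19 in Tsc1 mutant libraries and 1.02 ± 0.15 in the others (SD). These sums describe the genes above and add no test.

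**Figure D3:**
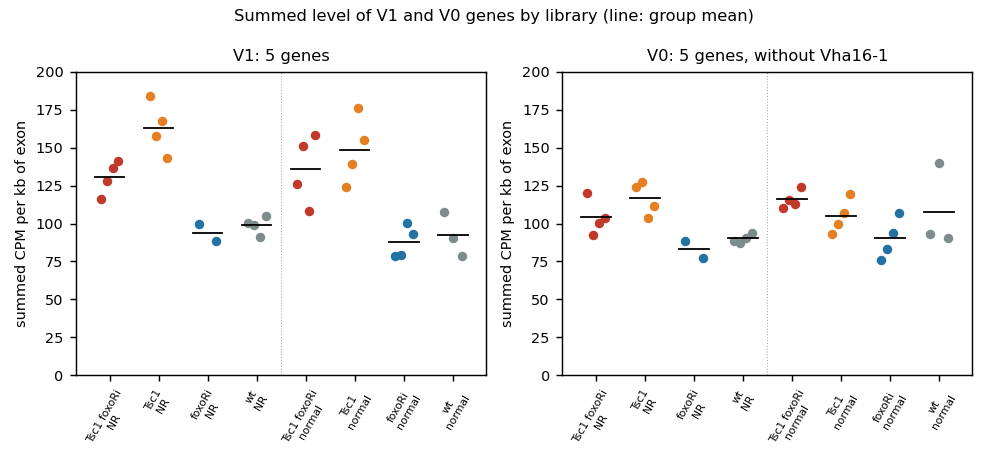
Summed CPM per kb of exon of the 5 V1 genes (left panel) and of 5 V0 genes without Vha16-1 (right panel), per library and group, with a black bar at each group mean. The V1 sums of all 16 Tsc1 mutant libraries, 108 to 184, lie above those of the 13 others, 78.5 to 107.4, whereas V0 sums overlap.

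Summed photoreceptor markers had a lower median in Tsc1 mutant libraries, as given above, whereas V1 genes stood higher. The strata differed, and none of the 9 markers was called in them. Their median log2 fold change was 0.925 in Tsc1 against wt clones on normal food and -0.65 under NR. In Tsc1 foxoRi against foxoRi clones it was -1.40 on normal food and -3.59 under NR. With the summed photoreceptor markers of each library as a covariate, an alternative chosen after seeing the data, Vha36-1 had a log2 fold change of 1.11 (adjusted p = 0.00131, edgeR) and Vha68-2 of 0.57 (0.00762), while Vha55 had 0.35 (0.121) and VhaAC45 0.41 (0.074). The call of Vha68-2 in Tsc1 foxoRi against foxoRi clones under NR was lost (0.83, 0.582). The fat body markers had a median log2 fold change of 1.72 for Tsc1 over strata with 1 of 6 called, and of 3.63 in Tsc1 against wt clones under NR. The muscle markers had a median log2 fold change of 1.786 for Tsc1 over strata, with 4 of 5 called higher. Of the 5 muscle markers, 3 were higher at an adjusted p under 0.05 (edgeR). The part of the fat body and muscle markers in the results over strata and under NR was not tested. On normal food, where Vha36-1 was called in Tsc1 against wt clones, the fat body markers summed to 0.414 to 2.07 CPM in Tsc1 and 8.46 to 19.3 CPM in wt libraries, and the muscle markers to 3.81 to 12.6 CPM in Tsc1 and 7.34 to 18.7 CPM in wt libraries. In RNA from all the cells of a clone together, a higher level per cell and a higher share of expressing cells cannot be told apart.

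The second question was the effect of food. Under NR the Vha genes stood close to normal food: over the 4 genotypes none of 22 was called, where 0.104% of all tested genes were, and DESeq2 called none as well. An unadjusted p under 0.05 was found for 1 of 22 against 6.91% of all, Vha36-1 (log2 fold change 0.38, 95% interval 0.02 to 0.73, adjusted p = 0.68, edgeR). The log2 fold changes of the other 10 broadly expressed genes ran from -0.25 (VhaM9.7-b) to 0.14 (Vha16-1), and over the 11 the 95% intervals reached from -0.61 to 0.73. The V1 median was 0.05 and the V0 median -0.06, against 0.05 over all tested genes. In none of the 4 genotypes alone was a Vha gene called by edgeR or DESeq2. For Tsc1 foxoRi clones 1.55% of all tested genes were called by edgeR, for Tsc1 clones 0.0444%, and for foxoRi and wt clones 0%. At an unadjusted p under 0.05 there were 1, 2, 0 and 2 Vha genes in these 4 genotypes, against 11.1%, 9.04%, 3.87% and 5.33% of all tested genes. Vha16-1 had NR libraries apart and higher in foxoRi clones (5.67% of all tested genes did) and in wt clones (2.04%), and Vha100-2 in Tsc1 clones (3.55%), while VhaAC45 had them apart and lower in wt clones (2.24%). Vha16-1 was higher under NR in the group mean of 4 of 4 genotypes, with 615 ± 97.4 CPM under NR and 554 ± 106 CPM on normal food, and a log2 fold change of 0.14 (95% interval -0.06 to 0.34, adjusted p = 0.919, edgeR). Whether the Tsc1 effect differed by food was tested as an interaction over both knockdown states, and no Vha gene was called by edgeR or DESeq2, where edgeR called 2.44% of all tested genes. Of the 22, 2 had an unadjusted p under 0.05, both among the low genes, against 14.9% of all, and the median of all tested genes was 0.36 in this test. The largest differences among the 11 were those of Vha14-1 (-0.66, 95% interval -1.50 to 0.17), VhaM9.7-b (0.61) and Vha100-2 (0.59, 95% interval -0.01 to 1.19), with adjusted p of 0.461, 0.424 and 0.342 (edgeR).

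The third question was the effect of foxo knockdown with its temperature shift, in libraries labelled so but not lower in foxo RNA. In the mean over 4 strata no Vha gene was called by edgeR or DESeq2, where edgeR called 0.902% of all tested genes, and 1 had an unadjusted p under 0.05 against 10.8% of all, Vha68-2, with a log2 fold change of -0.27 (95% interval -0.51 to -0.04, adjusted p = 0.356, edgeR). All 5 V1 genes lay below 0, from -0.31 (Vha36-1) to -0.03 (Vha55), and 5 of 6 V0 genes did, with a median of -0.13 in each sector against 0.01 over all tested genes. Vha16-1 was lower with knockdown in the group mean of all 4 strata, with 543 ± 110 CPM with knockdown and 621 ± 87.2 CPM without (log2 fold change -0.18, 95% interval -0.38 to 0.02, adjusted p = 0.527). In no stratum alone was a Vha gene called by edgeR or DESeq2. Of all tested genes, edgeR called 0.873% in Tsc1 foxoRi against Tsc1 clones taken under NR, 0.0592% in the same pair from normal food, 0% in foxoRi against wt clones under NR and 0.0813% in that pair on normal food. At an unadjusted p under 0.05 there were 2, 3, 0 and 4 Vha genes in these comparisons, against 6.28%, 7.62%, 3.68% and 9.2% of all tested genes. In foxoRi against wt clones under NR, with 2 foxoRi libraries, Vha14-1 was apart and higher (6.07% of all tested genes were), and Vha16-1 and VhaM9.7-b were apart and lower (5.89%).

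**Figure D4:**
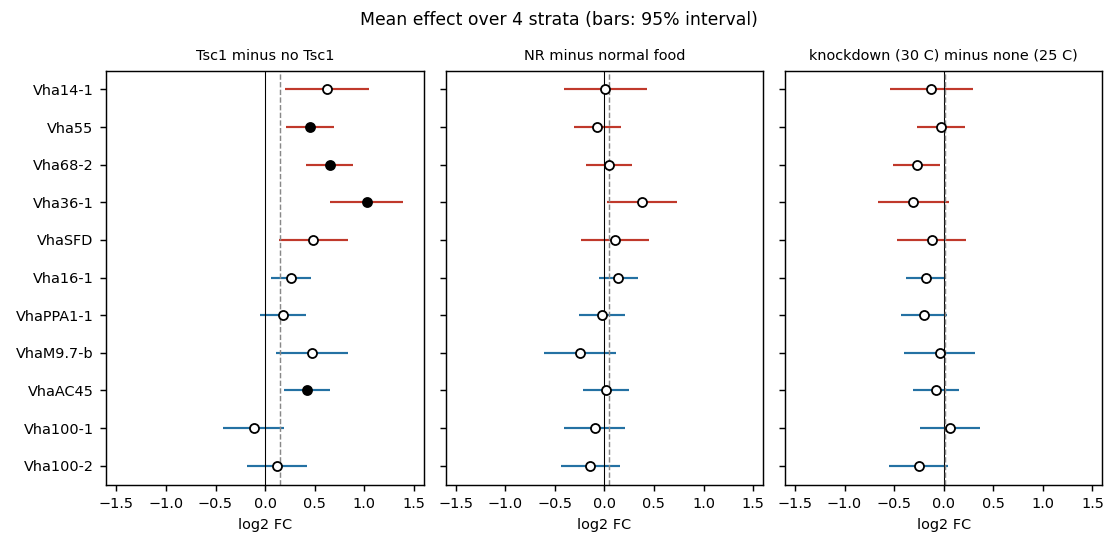
Log2 fold change, averaged over 4 strata, of the 11 broadly expressed Vha genes (red V1, blue V0) for Tsc1 mutant against no mutation, NR against normal food and foxo knockdown at 30°C against none at 25°C, with 95% intervals. Filled points have an adjusted p under 0.05 and the dashed line is the median of all tested genes. Vha36-1 (1.03), Vha68-2 (0.65), Vha55 (0.46) and VhaAC45 (0.42) are filled in the Tsc1 panel and no point is filled in the other panels.

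The balance of the 2 main subunit a genes varied between libraries. Vha100-1 as a share of Vha100-1 plus Vha100-2, per kb, ran from 31.4% to 73.9% over the libraries, with group means of 37.5% in wt clones on normal food and 60.8% in foxoRi clones on normal food. In foxoRi libraries on normal food Vha100-1 had 33.6, 73.1, 52.1 and 41.8 CPM against 31.0, 40.1 and 23.4 in wt libraries, and Vha100-2 had 35.1, 25.3, 31.1 and 28.7 CPM against 39.2, 85.6 and 38.1. Vha100-2 was lower and the groups did not overlap, but neither gene passed (log2 fold change 0.67, SE 0.30 and adjusted p = 0.54 for Vha100-1, and -0.85, SE 0.29 and adjusted p = 0.449 for Vha100-2, edgeR), and 1 wt library at 85.6 CPM sets the size for Vha100-2. VhaPPA1-1 was also apart and lower in the same comparison (24.4, 30.5, 30.7 and 31.2 CPM in foxoRi against 35.4, 52.1 and 46.9 in wt libraries, log2 fold change -0.62, SE 0.22, adjusted p = 0.489, edgeR), and 3.72% of all tested genes were apart and lower there.

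Of genes that act with the pump, 6 assembly factors (Rbcn-3A, Rbcn-3B and others) were all tested and none was called in any comparison. Their median log2 fold change in Tsc1 mutant clones, over strata, was 0.05 against 0.15 over all tested genes. Of 25 genes of the lysosomal TORC1 arm, such as mTor, raptor, the Rag and Ragulator genes and Mitf, none was called over strata for Tsc1, NR or knockdown, and their median log2 fold change for Tsc1 was -0.005. The exception in single comparisons was path, an amino acid transporter of the lysosomal and plasma membranes that acts on TORC1, which was lower under NR in Tsc1 foxoRi clones, with 16.9 ± 10.5 CPM under NR and 72.1 ± 44.7 CPM on normal food (SD, n = 4 each), a log2 fold change of -2.09 (SE 0.47, adjusted p = 0.0274, edgeR), where 0.14% of all tested genes were called lower. Of 18 genes of the lysosomal lumen and membrane, such as the cathepsins, Npc1a and Lamp1, none was called over strata and 1 in a single comparison. Hexo1, a hexosaminidase that trims sugars in the lysosome, was called lower in Tsc1 foxoRi against Tsc1 clones under NR, with 25.8 ± 7.37 and 48.7 ± 8.19 CPM (SD, n = 4 each), a log2 fold change of -0.92 (SE 0.24, adjusted p = 0.163, edgeR), where 0.873% of all tested genes were called in either direction, higher and lower together. Over strata it had 37.2 ± 11.8 CPM in the 16 Tsc1 mutant libraries and 52.0 ± 7.33 CPM in the 13 others, a log2 fold change of -0.52 (adjusted p = 0.0142, edgeR), which was the only one of the 18 at an adjusted p under 0.05, and 2.17% of all tested genes were lower at that level. The mutant groups were uneven, as the Tsc1 NR mean lay near that of the libraries without the mutation. The older symbol VhaM8.9 belongs to ATP6AP2, an accessory protein of the pump that lies outside the naming rule and had a log2 fold change of 0.06 for Tsc1 over strata (adjusted p = 0.96, edgeR).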

How the data were processed

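Single clones were isolated by laser microdissection and libraries were made with the Ovation SoLo kit, which suits small amounts of RNA. Per the labels, reads were processed with Trimmomatic, STAR and featureCounts on BDGP6; versions and strand settings are not given in the sources used here. The authors deposited the result as 1 table of estimated counts without normalization, with 17559 genes in 31 libraries. Of the values, 17.1% were not whole, and they were rounded before testing. IDs were matched to the BDGP6.54 annotation (17253 matched, 306 did not); exon lengths and coordinates come from it. The unmatched IDs hold 7.24% to 9.41% of counts and were kept, and ribosomal RNA genes hold 27.3% to 55.9%, so that depth on messenger RNA is lower than the totals.

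The study used 29 libraries; which 2 it left out is not stated, and the 2 with the fewest genes with a count were left out here. Counts of the 8 groups were fitted together in edgeR 4.0.16 (R 4.3.3; TMM, filterByExpr by group, quasi-likelihood test), and p-values were adjusted by Benjamini-Hochberg over the 13524 tested genes. Calls follow the study's 2 thresholds given in the text. SE is the fold change divided by the root of the F statistic, and 95% intervals use the fit's degrees of freedom. There were 16 comparisons, 12 of 2 groups, 3 of a mean over 4 strata, and the Tsc1 effect by food. CPM use TMM library sizes, and CPM per kb divide by exon length. The common biological coefficient of variation was 0.858.

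Named members were, per subunit, the gene with the highest CPM per kb and every gene called. Vha100-2, VhaM9.7-c, Vha68-1, Vha68-3, Vha16-2, Vha16-3, Vha100-4, Vha100-5, VhaAC45RP and ATP6AP2 fall outside this rule and were named after their values were seen. The Vha members and the lists of assembly factors, TORC1 arm, lysosomal genes and cell type markers were chosen with earlier results of these data known. The markers of trachea and testis (2 of them, btl and vas, not matched) and of glia and hemocytes are in the closing section. On simulated counts with known changes for the Tsc1 mean over strata (12500 genes), 39 of 66 genes changed by a log2 fold change of 1, 60 of 67 at 2 and 66 of 67 at 3 were called, with 66 false calls. Alternatives tried were all 31 libraries, no low-count filter, DESeq2 1.42.0 size factors and Wald test, protein-coding genes only, genes detected as a covariate, photoreceptor markers as a covariate (added after the data were seen), a replicate block, adjusted p under 0.05 with no fold, and each library left out.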

Additional observations from a re-analysis of the deposited data

Results flagged for a closer look

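Of 66 sets of 4 libraries looked at, 6 had a library far from the other 3, where chance flags about 5% of sets. VhaSFD had 14.9 CPM in wt NR replicate 3 while the other wt NR libraries had 36.0 to 38.8. In the same library VhaAC45 had 28.8 CPM against 41.5 to 42.1 and VhaM9.7-b had 32.0 CPM against 21.1 to 22.3 in the others. In foxoRi normal food replicate 1, Vha16-1 had 329 CPM against 478 to 506 and VhaPPA1-1 24.4 CPM against 30.5 to 31.2. Vha36-1 had 31.1 CPM in Tsc1 foxoRi NR replicate 3 against 25.5 to 26.2.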

How the results depend on the processing

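The Tsc1 effect over strata gave 1 called Vha gene under each alternative at the same rule and 1 to 3 over the libraries left out in turn (3 without wt normal food replicate 1, 2 without foxoRi normal food replicate 3), and 4 at an adjusted p under 0.05 with no fold. Vha36-1 passed an adjusted p under 0.05 under every alternative (log2 fold change 0.95 to 1.17, adjusted p 1.43e-06 to 0.0386). With all 31 libraries it alone did, Vha68-2 then having 0.75 (adjusted p 0.133), Vha55 0.56 (0.225) and VhaAC45 0.36 (0.277), while Vha100-2 had -0.18 (0.809) and Vha100-1 -0.70 (0.141). With photoreceptor markers as a covariate Vha100-1 had 0.021 (adjusted p 1.0). VhaAC45 had adjusted p 0.0835 with no low-count filter and 0.0522 with protein-coding genes only, and DESeq2 added Vha14-1, for 5. The V1 median ran from 0.57 to 0.63 and the V0 median from 0.18 to 0.25. The median of all tested genes ran over 0.05 to 0.22 by setting.

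In single strata, called Vha genes in Tsc1 against wt clones on normal food were 0 with all 31 libraries, no filter, protein-coding genes only, the replicate block or adjusted p under 0.05, 2 with the DESeq2 test, and 0 to 2 over libraries left out. In Tsc1 foxoRi against foxoRi clones under NR they were 0 with no filter, the photoreceptor covariate or adjusted p under 0.05, 3 with all 31 libraries and 3 with the DESeq2 test, and 0 to 1 over libraries left out. The DESeq2 test gave 1 in Tsc1 against wt clones under NR and 1 in Tsc1 foxoRi against foxoRi clones on normal food; all 31 libraries gave 1 in foxoRi against wt clones under NR. The Tsc1 effect by food gave 0 to 1 over libraries left out. The cause of these changes was not tested.

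The replicate numbers do not pair the libraries: 92 same-number pairs had correlations of -0.41 to 0.29 (median 0.01), 18 of them over 0.1. Under the replicate block, Vha36-1 in Tsc1 against wt clones on normal food had 1.19 (adjusted p 0.289), so that the count went to 0, and no other count of calls changed.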

Other observations

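Further markers of other cell types gave these sums. The 4 glia markers summed to a median of 72.3 CPM (52.4 to 108) in Tsc1 mutant libraries and 81.7 CPM (33.9 to 128) in the others, and the 6 hemocyte markers to 5.41 CPM (0.402 to 68.2) and 4.32 CPM (0.477 to 91.2). The 6 testis markers matched summed to 7.97 CPM at most, and trh, the 1 trachea marker matched, to 12.9 CPM at most.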
